A study of Mus musculus with 135 samples.

Results

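The circadian clock genes Clock, Arntl, Per1, Per2, Per3, Cry1, Cry2, Nr1d1, Nr1d2 and Dbp were described through H3K4me3, a histone H3 modification (lysine 4 trimethylation) found on nucleosomes at active gene starts. A peak was assigned to a gene when it lay within 1 kb of one of its transcription start sites in GENCODE M21. All 10 genes had a promoter peak, of 28342 genes with one in at least 1 cell type. The peaks numbered 10 in male germ cells (of 19447 promoter peaks), 10 in hepatocytes (of 12616), 9 in cardiomyocytes (of 12920) and 10 in embryonic stem cells (of 18468).

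The study was done in mice. An antibody to the mark pulled down chromatin cut with MNase, whose DNA was sequenced (ChIP-seq), and the values are reads per peak in 123 libraries. The F1 hybrid of the inbred strains C57BL/6J (B6) and DBA/2J (D2), both founder strains themselves, and the BXD lines, inbred from their crosses so that each has its own mix of B6 and D2 segments, carried no other allele or treatment in the labels. Male germ cells, a crude isolate from the testis at 14 days post-partum, were profiled in BXD lines (61 strains, 69 libraries), F1 (4), B6 (3) and D2 (3). Hepatocytes and cardiomyocytes of females aged 8 weeks had 3 libraries for each strain among BXD75, BXD87, B6 and D2. Stem cells, derived at embryonic day 3.5, had 5 libraries per strain, made from 5 lines each of BXD75 and BXD87 and 3 lines each of B6 and D2, with libraries of 1 line summed. No source used here gives the hour at which cells or tissue were taken, so strain, cell type and time of day cannot be told apart for these genes.

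In the mammalian clock the proteins CLOCK and ARNTL (also called BMAL1) bind E-box sequences as a pair and switch on the Per, Cry, Nr1d and Dbp genes. The PER and CRY proteins accumulate and repress that pair, and the nuclear receptors NR1D1 and NR1D2 (REV-ERB alpha and beta) repress Arntl through ROR elements. DBP, a transcription factor of the PAR bZIP family, passes the rhythm to output genes through D-boxes and is known for its strong rhythm in liver. In liver and heart many of these transcripts rise and fall over the day, while early stem cells and the testis are known for weak or absent clock rhythms.

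Promoter letters were read to show which members carry the elements this circuit is built on. Of 32851 RefSeq windows running from 250 bases before to 50 bases after a start (GRCm38.p6), 7.15% held the E-box CACGTG. Searched on both strands in 13 windows of 9 members (all but Per2), it was present at Cry1, 60 bases before the start, and at Per1, 166 bases before it. The D-box TTANGTAA, in 2.32% of windows, occurred at Per3 alone, 205 and 158 bases before the start. The ROR element was searched as TAGGTCA (2.61% of windows), found at Arntl 31 bases after the start inside an exon, and as TGGGTCA (3.98% of windows), found at 0 members. A match is a string of letters and not a measured binding site, and the motifs did not overlap each other. Capitals mark the match in the stretch before the start of Per1 (chr11:69098699-69098947, plus strand), Cry1 (chr10:85185065-85185304, minus strand) and Per3 (chr4:151044666-151044915, minus strand), and in the site of Arntl (chr7:113207531-113207557, plus strand), each 5′ to 3′.
Per1: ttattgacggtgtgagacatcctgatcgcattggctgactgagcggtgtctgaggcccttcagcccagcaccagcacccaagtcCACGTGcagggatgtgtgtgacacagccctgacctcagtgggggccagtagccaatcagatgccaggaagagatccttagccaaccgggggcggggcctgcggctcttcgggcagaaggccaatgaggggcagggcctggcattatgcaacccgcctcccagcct
Cry1: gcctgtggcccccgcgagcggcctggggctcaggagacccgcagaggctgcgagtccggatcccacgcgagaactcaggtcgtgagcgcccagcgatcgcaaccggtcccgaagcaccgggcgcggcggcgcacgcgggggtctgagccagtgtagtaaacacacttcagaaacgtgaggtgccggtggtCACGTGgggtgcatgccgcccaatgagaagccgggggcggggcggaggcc
Per3: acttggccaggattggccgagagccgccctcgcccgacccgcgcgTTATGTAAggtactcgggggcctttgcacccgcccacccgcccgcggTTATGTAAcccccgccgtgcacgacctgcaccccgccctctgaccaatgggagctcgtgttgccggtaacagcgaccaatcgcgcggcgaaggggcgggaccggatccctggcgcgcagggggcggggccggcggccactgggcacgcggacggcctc
Arntl: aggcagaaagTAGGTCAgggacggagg
All these stretches lay inside the H3K4me3 peak of their gene in each of the 4 cell types.

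The libraries held 13.8 to 20.2 M (mega) reads in peaks in stem cells, 8.95 to 25.2 M in hepatocytes, 2.62 to 12.8 M in cardiomyocytes and 1.87 to 31.4 M in germ cells. Of 6 hepatocyte markers 6 had a promoter peak in hepatocytes, while 0 of 6 cardiomyocyte markers had one there. In cardiomyocytes 4 of 6 cardiomyocyte markers had one, and so did 4 of 6 markers of other heart cells, whose summed level was 298 to 440 CPM (reads of the peak per mega-read of scaled library). Germ cells had a peak at 6 of 6 germ cell markers and at 4 of 6 markers of somatic testis cells. Stem cells had one at 4 of 6 stem cell markers, 6 of 6 germ cell markers and 6 of 6 markers of differentiating cells. Hepatocytes had one at 4 of 6 markers of somatic testis cells, so presence of a peak alone does not identify these cells. The lists hold no promoter peak for Pou5f1 and Nanog in stem cells or for Myh6 and Tnnt2 in cardiomyocytes, which mark those cells, so a gene with no listed peak is not read here as a gene with no mark. In chromatin of many cells, fewer marked cells and less mark per cell cannot be told apart.

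The extent of the mark separated heart from the other cell types at several of these genes. Germ cell libraries of F1, B6 and D2 used antibody lot 2557645, and those of the other cell types lot 2746331. The kit differed in the same way. Lot, kit and cell type therefore cannot be told apart where germ cells are set beside the others. The peak at Nr1d1 spanned 5.70 kb in stem cells, 7.55 kb in hepatocytes, 38.7 kb in cardiomyocytes (chr11:98761347-98800085) and 6.41 kb in germ cells, and 50 of 12920 cardiomyocyte promoter peaks were wider. That peak also covers a start of Msl1. At Dbp the widths were 6.83, 5.74, 22.6 and 6.23 kb in the same order, the cardiomyocyte peak (chr7:45698860-45721505) also covering starts of Car11, Fam83e, Rpl18 and Sphk2. At Per1, a repressor of the PER family, they were 7.20, 15.1, 27.7 and 7.45 kb, and the peaks of liver and heart reach Vamp2. These neighbours share the reads counted there, so a broad peak is a value for the domain and not for the clock gene alone.

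Per2, a PER repressor needed for a stable rhythm, had peaks of 2.26 kb in stem cells, 7.65 kb in hepatocytes, 19.3 kb in cardiomyocytes and 3.95 kb in germ cells. For Cry2, a repressor of the pair, they spanned 6.01, 8.53, 17.5 and 5.50 kb in that order. The activators and Cry1 had their widest peak in hepatocytes: Arntl at 4.10, 11.2, 6.33 and 3.60 kb, Clock at 5.24, 7.98, 3.75 and 4.35 kb and Cry1, the other cryptochrome, at 5.07, 11.6, 4.21 and 4.41 kb. Per3, a PER protein with a lesser part in the clock, had peaks of 2.68, 4.76, 6.21 and 3.63 kb. Nr1d2 stood at 3.63 kb in stem cells, 9.16 kb in hepatocytes and 3.46 kb in germ cells and had no listed peak in cardiomyocytes, also with a window of 2 kb.

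Over all promoter peaks the median width was 3.27 kb in stem cells, 5.69 kb in hepatocytes, 4.13 kb in cardiomyocytes and 2.74 kb in germ cells. Clock gene peaks wider than 90% of promoter peaks numbered 0 of 10 in stem cells, 3 of 10 in hepatocytes (Arntl, Per1 and Cry1), 5 of 9 in cardiomyocytes (Per1, Per2, Cry2, Nr1d1 and Dbp) and 4 of 10 in germ cells (Per1, Cry2, Nr1d1 and Dbp). The hepatocyte peak was under 50% of the width of the cardiomyocyte peak for 4 of 9 clock genes (Per2, Cry2, Nr1d1 and Dbp), against 11.8% of 13827 genes with a promoter peak in both. Every listed peak of these genes was found on both genomes that the authors used and covered the start of its gene, and 1 peak stood for each gene in each cell type.

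**Figure D1:**
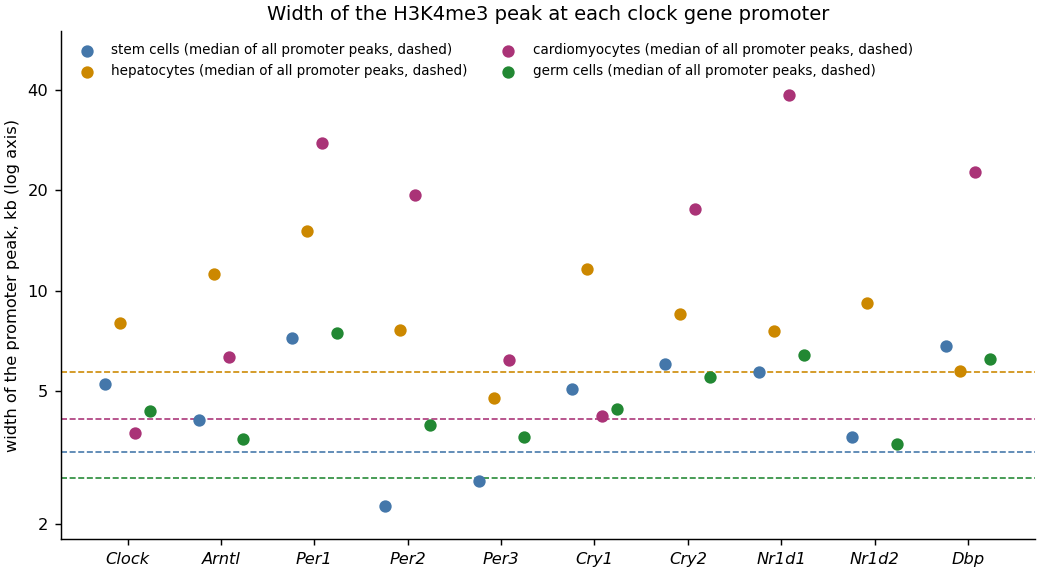
Width in kb (log axis) of the H3K4me3 promoter peak of each clock gene in stem cells, hepatocytes, cardiomyocytes and germ cells, 1 point per peak, with the median of all promoter peaks of the cell type as a dashed line. The cardiomyocyte peaks of Per1, Per2, Cry2, Nr1d1 and Dbp lie between 17.5 and 38.7 kb, those of Clock and Cry1 near the cardiomyocyte median, and Nr1d2 has no cardiomyocyte point.

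Levels were compared between cell types to see where each gene carried most of the mark. The comparison at equal extent (peaks overlapping by at least 50% of both) held 0 of the 10 genes. Nr1d2 has no listed peak in cardiomyocytes, and the widths of the other 9 differ too much between cell types. The promoter peak of each gene in each cell type was therefore used, whatever its extent, a choice made after the data were seen. It covered 9596 sets of promoter peaks and 9 clock genes. Values are mean ± SD of CPM over 12 hepatocyte libraries, 12 cardiomyocyte libraries and 16 stem cell lines of 4 strains, and differences were tested as the mean over strains with edgeR. Wider peaks hold more reads, so each difference is given a second time per kb of peak, as a description.

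The activators were marked more in hepatocytes than in cardiomyocytes. Arntl stood at 138 ± 15.7 CPM in hepatocytes and 95.1 ± 13.0 in cardiomyocytes, a log2 difference of 0.54 (SE 0.04, adjusted p = 3.48e-14), which was -0.28 per kb. For Clock, whose peak it shares with Gm43658 and Gm7467, the levels were 121 ± 19.8 and 99.0 ± 14.3 CPM, a log2 difference of 0.30 (SE 0.07, adjusted p = 8.15e-05) and -0.79 per kb. Cry1 was higher in hepatocytes as well, at 188 ± 15.5 against 106 ± 4.10 CPM, by a log2 of 0.83 (SE 0.03) in total and -0.64 per kb. All 3 thus turned sign once extent was taken into account.

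The other repressors and the output gene went the other way. Nr1d1 stood at 167 ± 25.4 CPM in hepatocytes and 716 ± 79.2 in cardiomyocytes, a log2 difference of -2.10 (SE 0.07, adjusted p = 8.35e-26), but 0.26 per kb. Dbp stood at 122 ± 26.4 against 544 ± 46.5 CPM, a log2 difference of -2.18 (SE 0.07, adjusted p = 2.59e-26), which was -0.19 per kb. In both genes every hepatocyte library lay below every cardiomyocyte library in total reads, with a highest hepatocyte value of 206 CPM for Nr1d1 and 161 CPM for Dbp.

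Among the PER genes Per1 stood at 236 ± 18.6 CPM in hepatocytes and 488 ± 46.0 in cardiomyocytes, a log2 difference of -1.04 (SE 0.04). Per2 was at 131 ± 27.4 against 256 ± 31.2 CPM (-0.99, SE 0.06) and Per3 at 67.0 ± 9.53 against 98.6 ± 11.6 CPM (-0.56, SE 0.06). Cry2 was lower in hepatocytes too, at 192 ± 12.5 against 319 ± 43.7 CPM, by a log2 of -0.73 (SE 0.05). Per kb the differences became -0.17 for Per1, 0.35 for Per2, -0.18 for Per3 and 0.31 for Cry2. In all, 3 of 9 clock genes were higher and 6 lower in hepatocytes, with a median log2 difference of -0.73 against 0.08 over all sets. Since 87.3% of all sets were called in this comparison, the number called says nothing particular about these genes.

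In total reads stem cells carried less of the mark than hepatocytes at 8 of 9 of these genes and more at Dbp, in a comparison in which 89.8% of sets were called. Per kb of peak the sign turned at 5 of the 9. Per2 differed most, at 28.3 ± 3.07 CPM in stem cells and 131 ± 27.4 in hepatocytes, a log2 difference of -2.19 (SE 0.06, adjusted p = 1.98e-28) and -0.43 per kb. Arntl followed at 57.8 ± 4.78 against 138 ± 15.7 CPM (-1.25, SE 0.04), which was 0.20 per kb. Dbp stood at 136 ± 14.1 against 122 ± 26.4 CPM, a log2 difference of 0.18 (SE 0.06, adjusted p = 0.00818), which was -0.07 per kb and was not called in the fit of hepatocytes and stem cells alone (0.13, adjusted p = 0.0808), though it was called there with RLE size factors. Nr1d2, which only that fit could hold, differed by a log2 of -0.82 (SE 0.03, adjusted p = 4.49e-20) in total reads and by 0.51 per kb, with a peak of 3.63 kb in stem cells against 9.16 kb in hepatocytes. Per kb the difference was also above 0 at Clock (0.36), Per1 (0.31) and Cry1 (0.30). It was below 0 at Per3 (-0.18), Cry2 (-0.53) and Nr1d1 (-0.05).

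Against cardiomyocytes, 8 of 9 genes were lower in stem cells in total reads, again with 89.8% of all sets called. The log2 difference was -3.18 (SE 0.06) for Per2, -2.56 (SE 0.07) for Nr1d1, -1.99 (SE 0.06) for Dbp and -1.80 (SE 0.04) for Per1. Per kb of peak the differences of Per2, Nr1d1, Dbp and Per1 became -0.08, 0.21, -0.26 and 0.14. Clock was the exception in total reads at 102 ± 8.98 CPM in stem cells and 99.0 ± 14.3 in cardiomyocytes (0.05, SE 0.06, adjusted p = 0.414), a difference of -0.43 per kb. Cry1 differed by -0.07 (SE 0.03, adjusted p = 0.0394) in total reads and by -0.34 per kb. For Arntl, Per3 and Cry2 the values per kb were -0.08, -0.36 and -0.22.

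**Figure D2:**
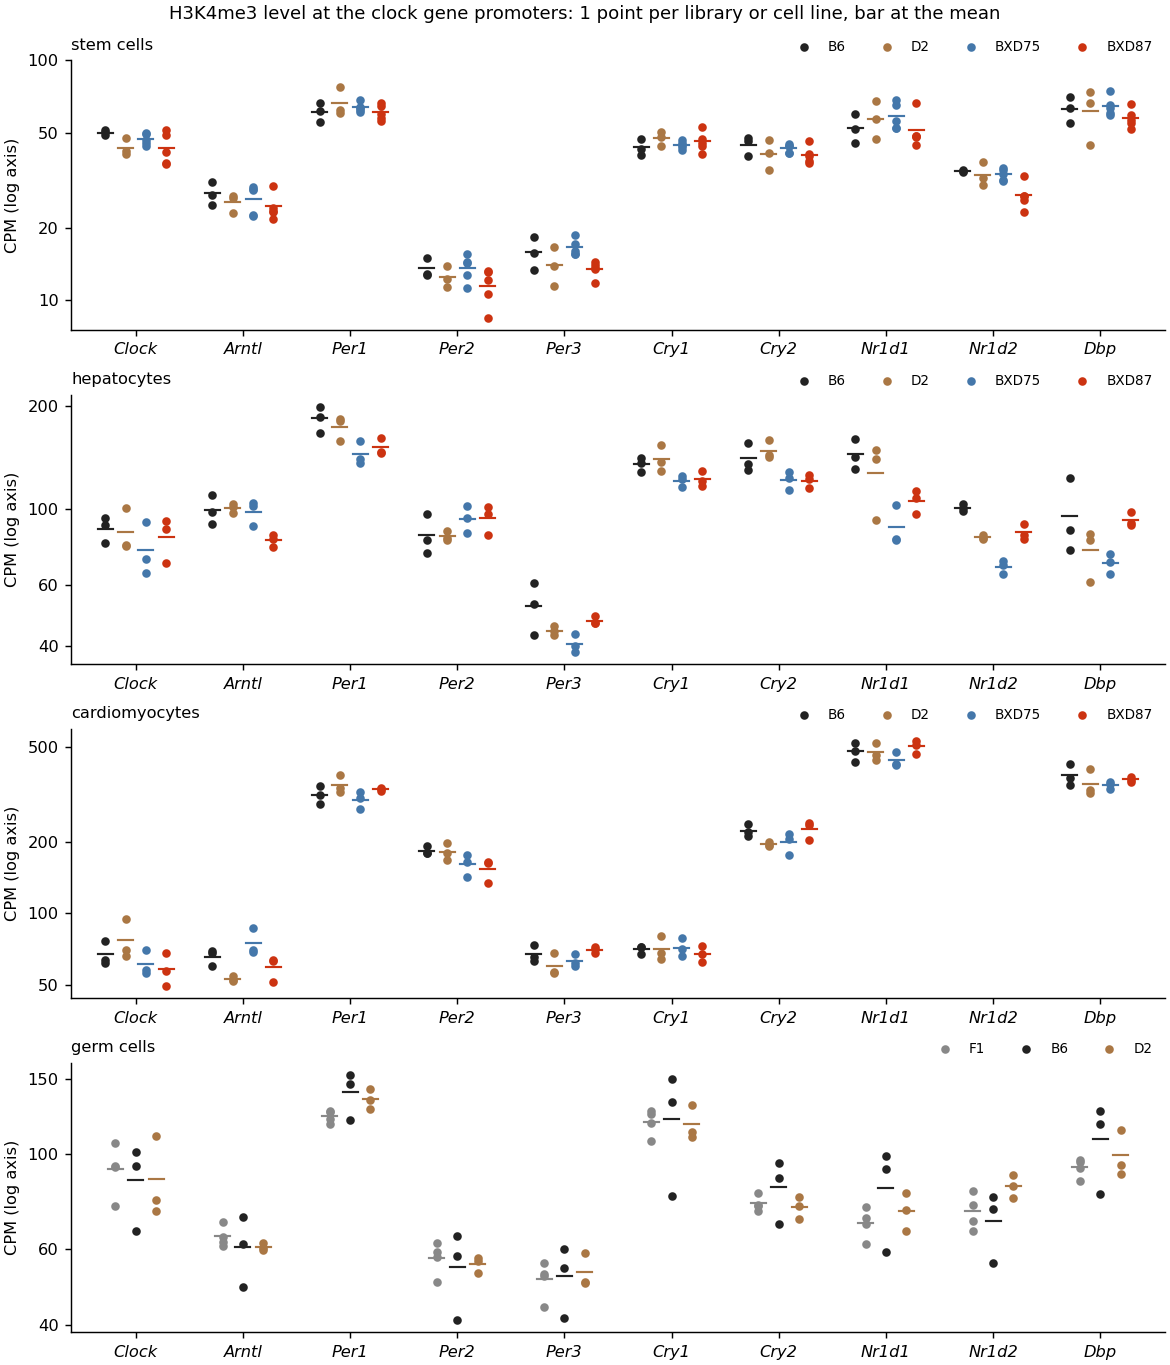
H3K4me3 level in CPM (log axis) at each clock gene promoter in stem cells, hepatocytes, cardiomyocytes and germ cells, 1 point per library (per cell line in stem cells) and a bar at the mean of each strain, scaled within the cell type. Nr1d1, Dbp, Per1, Cry2 and Per2 stand above the other clock genes in cardiomyocytes, and the 3 B6 hepatocyte libraries at Nr1d2 (98.7 to 103 CPM) stand above the 3 of D2 (81.7 to 83.8 CPM).

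Within a cell type genes were ranked by CPM per kb of peak. In stem cells the order ran from Nr1d1 at 9.64 ± 1.46 CPM per kb (SD, 16 lines) to Per3 at 5.59 ± 0.79, with Dbp, Cry1, Nr1d2, Per1, Clock, Cry2, Arntl and Per2 between them. In hepatocytes Cry2 led at 15.6 ± 1.73 CPM per kb and Arntl was last at 8.48 ± 0.91 (12 libraries). Each gene in these orders overlapped the next in the ranges of its libraries.

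In cardiomyocytes Clock led at 17.6 ± 3.13 CPM per kb, followed by Cry1 at 16.7 ± 1.28 and Dbp at 15.9 ± 1.33, whose lowest library (14.1) lay above the highest of Nr1d1 (13.7), the fourth. Per2 was last at 8.79 ± 0.94. In germ cells Cry1 led at 27.0 ± 4.23 CPM per kb and Nr1d1 was last at 11.7 ± 2.00, over 10 libraries of F1, B6 and D2. Except for that step from Dbp to Nr1d1 in cardiomyocytes, neighbours in each order overlapped. Nr1d1 thus stood first of 10 in stem cells and last of 10 in germ cells on this scale. These stem cell and germ cell libraries differed in antibody lot and kit.

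Strain differences were tested within each cell type to see whether any clock promoter differed between the founders or between the BXD lines. Nr1d2 was the only member called in any of these comparisons by edgeR over all peaks. In hepatocytes its level was 101, 103 and 98.7 CPM in the B6 libraries, against 83.8, 81.7 and 82.5 CPM in those of D2. The groups did not overlap, and the log2 difference was 0.29 (SE 0.08, adjusted p = 0.0153). This was 1 of 10 genes called, in a comparison in which 15.8% of peaks and 9.23% of promoter peaks were called. The call was lost without B6 replicate 2 (0.27, adjusted p = 0.0610) or D2 replicate 2 (0.28, adjusted p = 0.0645). Summed levels of 3 liver non-parenchymal markers with a peak (Stab2, Lrat and Kdr) were 22.1 to 29.1 CPM in B6 and 41.9 to 93.2 CPM in D2, with Clec4f, Adgre1 and Krt19 lacking a listed peak. That gap lay at Stab2, a marker of sinusoidal endothelium (-2.41, adjusted p = 3.28e-05), with 0.02 at Kdr (adjusted p = 0.980) and -0.33 at Lrat (adjusted p = 0.702), while Pdgfra, on the list for other heart cells, was higher in B6 (0.69, adjusted p = 0.00192). The part of these in the Nr1d2 difference was not tested.

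Between the lines Nr1d2 was lower in BXD75 in hepatocytes. It stood at 70.6, 68.7 and 64.5 CPM in BXD75 and 90.3, 84.2 and 82.0 CPM in BXD87. Every BXD75 library lay below every BXD87 library, with a log2 difference of -0.33 (SE 0.08, adjusted p = 0.0133), 1 of 10 genes called where 4.89% of peaks and 2.33% of promoter peaks were. The call was lost without BXD75 replicate 3 (-0.30, adjusted p = 0.0583), BXD87 replicate 1 (-0.29, adjusted p = 0.0620) or BXD87 replicate 2 (-0.36, adjusted p = 0.0669). The non-parenchymal sums were 15.8 to 22.6 CPM in BXD75, and those of BXD87 lay within that range.

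In stem cells Nr1d2 was higher in BXD75. The level was 34.8, 33.5, 31.9, 35.7 and 31.3 CPM in BXD75 lines A, F, N, Q and Y, and 27.1, 32.8, 23.4, 26.2 and 27.3 CPM in BXD87 lines C, I, K, M and X. Line I of BXD87 overlapped the BXD75 lines and the other 4 did not. The log2 difference was 0.29 (SE 0.09, adjusted p = 0.0198), again 1 of 10 genes in a comparison with 21.8% of peaks and 14.5% of promoter peaks called. It was lost without BXD75 line Q (0.27, adjusted p = 0.0505) or BXD87 line K (0.24, adjusted p = 0.0650).

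The opposite signs were tested directly. The difference between BXD75 and BXD87 at Nr1d2 was lower in hepatocytes than in stem cells by a log2 of -0.55 (SE 0.08, edgeR adjusted p = 6.47e-05), a test added after the data were seen in which 3.62% of 10788 sets were called. Left out 1 at a time, the libraries and lines gave -0.59 to -0.51, past the threshold each time. For the founders the same test gave 0.25 (SE 0.09, adjusted p = 0.103) at Nr1d2 and 0 of 10 members called, with 2 at an unadjusted p under 0.05 and 8.09% of sets called. Founder levels in stem cells were 34.5, 34.8 and 34.4 CPM in B6 lines 139, 146 and 49 and 30.1, 32.4 and 37.7 CPM in D2 lines 173, 203 and 216, and the D2 lines spanned those of B6.

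**Figure D3:**
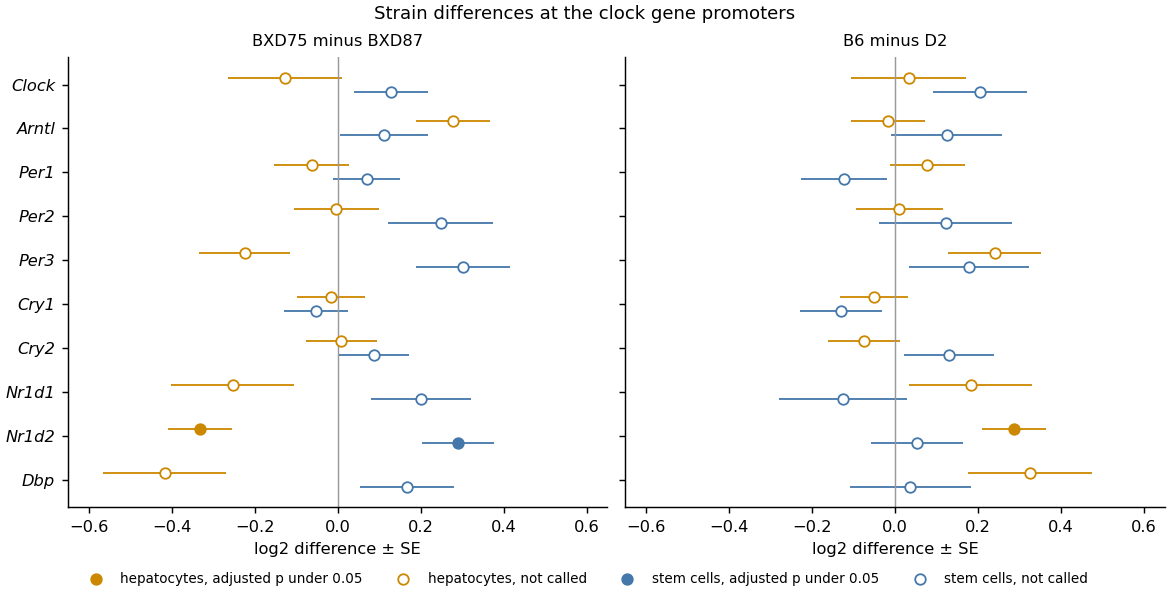
Log2 difference in H3K4me3 ± SE at each clock gene promoter between BXD75 and BXD87 (left) and between B6 and D2 (right), in hepatocytes and stem cells, with filled points for an adjusted p under 0.05. Nr1d2 holds the only filled points, at -0.33 in hepatocytes and 0.29 in stem cells for the lines and at 0.29 in hepatocytes for the founders.

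Levels of both groups did not overlap for 13 pairs of gene and comparison, of which 11 were not called. Between BXD75 and BXD87 these were 4 of 10 genes in hepatocytes, 4 of 9 in cardiomyocytes and 1 of 10 in stem cells, where 17.4%, 17% and 18% of all peaks had no overlap. Between B6 and D2 they were 1 of 10 in hepatocytes, 2 of 9 in cardiomyocytes, 1 of 10 in stem cells and 0 of 10 in germ cells, where 30.7%, 33.4%, 36.2% and 30% of all peaks had none. Groups that do not overlap are therefore common in these data, and the values of the 11 are a description.

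Dbp in hepatocytes stood at 70.0, 64.8 and 73.8 CPM in BXD75 and 89.6, 97.9 and 91.0 CPM in BXD87, which is -0.42 in log2 (SE 0.15, adjusted p = 0.168). In cardiomyocytes the gap at Dbp was smaller, with 333 to 356 CPM in BXD75 and 358 to 376 CPM in BXD87 (-0.08, SE 0.10, adjusted p = 0.658). Per1 in cardiomyocytes stood at 274 to 323 CPM in BXD75 against 328 to 337 CPM in BXD87 (-0.14, SE 0.09, adjusted p = 0.384). Every BXD75 library lay below every BXD87 library in these 3 cases, and each missed the threshold.

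Arntl in hepatocytes was at 104, 89.1 and 102 CPM in BXD75 against 81.9, 84.1 and 77.3 CPM in BXD87 (0.28, SE 0.09, adjusted p = 0.0973). The same gene in cardiomyocytes stood at 86.4, 70.2 and 69.0 CPM in BXD75 against 63.3, 63.5 and 51.5 CPM in BXD87 (0.34, SE 0.11, adjusted p = 0.217). Arntl was thus above BXD87 in all 3 BXD75 libraries of both organs, in comparisons that each missed the threshold. Between the founders in cardiomyocytes it stood at 69.2, 68.3 and 59.9 CPM in B6 against 52.4, 51.8 and 54.4 CPM in D2 (0.32, SE 0.12, adjusted p = 0.118). Cry2 there stood at 211 to 237 CPM in B6 against 192 to 199.9 CPM in D2 (0.19, SE 0.10, adjusted p = 0.235). Among the stem cell founders the gene without overlap was Clock, at 48.7 to 51.3 CPM in B6 lines and 40.6 to 47.3 CPM in D2 lines (0.20, SE 0.11, adjusted p = 0.188).

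Per3 had no overlap between the lines in stem cells, hepatocytes and cardiomyocytes, with a different sign in stem cells. It stood at 15.6 to 18.6 CPM in the 5 BXD75 stem cell lines and 11.8 to 14.4 CPM in the 5 of BXD87 (0.30, SE 0.11, adjusted p = 0.0626). In hepatocytes it was at 38.4 to 43.1 CPM in BXD75 and 46.5 to 48.7 CPM in BXD87 (-0.22, SE 0.11, adjusted p = 0.436), and in cardiomyocytes at 59.9 to 67.3 CPM in BXD75 and 68.3 to 72.2 CPM in BXD87 (-0.16, SE 0.10, adjusted p = 0.343). The hepatocyte difference minus that of stem cells was -0.45 (SE 0.15, adjusted p = 0.116) and missed the threshold. DESeq2 called the stem cell difference (0.31, adjusted p = 0.0440). Between founders in hepatocytes Per3 stood at 42.9, 60.9 and 52.9 CPM in B6 against 44.0, 45.6 and 43.0 CPM in D2, a difference of 0.24 in log2 (SE 0.11, adjusted p = 0.187) that was called when B6 replicate 1, the lowest, was left out (0.36, adjusted p = 0.0318).

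No clock promoter was called in cardiomyocytes. Between B6 and D2 the count was 0 of 9 by edgeR, with 1 gene (Arntl) at an unadjusted p under 0.05, 0 called by DESeq2 and 6.51% of all peaks (8.51% of promoter peaks) called. Between BXD75 and BXD87 it was 0 of 9 by edgeR, again with 1 gene (Arntl) at an unadjusted p under 0.05, 0 by DESeq2 and 0.529% of peaks (0.433% of promoter peaks) called. D2 had the shallowest cardiomyocyte libraries, at 2.62 to 4.10 M reads against 6.84 to 8.34 M in B6. Summed levels of the 4 cardiomyocyte markers with a peak were 590 to 737 CPM in B6 and 446 to 497 CPM in D2, whose part in the founder values was not tested. Differences from BXD87 among the repressors were small, Nr1d1 at 419 to 476 CPM in BXD75 and 468 to 531 CPM in BXD87 (-0.19, SE 0.10, adjusted p = 0.297). In stem cells 0 of 10 genes differed between B6 and D2 by edgeR, 0 at an unadjusted p under 0.05 and 0 by DESeq2, where 30.6% of peaks and 17.3% of promoter peaks were called.

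Germ cells gave no founder difference at these genes either. By edgeR 0 of 10 were called between B6 and D2, with 0 at an unadjusted p under 0.05 and 0 by DESeq2, where 17.3% of peaks and 7.51% of promoter peaks were called. The largest was Nr1d2 at 55.7, 79.4 and 74.6 CPM in B6 (libraries B62, B63 and B64) and 79.2, 89.6 and 84.3 CPM in D2, a log2 difference of -0.27 (SE 0.15, adjusted p = 0.242), with B63 above the lowest D2 library. The 6 germ cell markers also differed between these founders, with a summed level of 289 to 319 CPM in B6 and 372 to 377 CPM in D2, and their part in this value was not tested. Nr1d1 stood at 59.1, 92.1 and 99.0 CPM in B6 and 74.2, 81.0 and 66.1 CPM in D2 (0.18, SE 0.17, adjusted p = 0.524). Library B62 had the lowest level of all 10 founder and F1 libraries at 9 of 10 clock genes, with 58.9% of its reads in promoter peaks against 65.3 to 70.9% in the other 9. Without it Nr1d1 was called (0.37, adjusted p = 0.0240), so that value rests on that library.

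In F1 germ cells, from animals with both founder alleles, no clock promoter was called against the mean of the parents. Dbp was at 93.0, 96.0, 96.9 and 86.5 CPM in F1 and at 80.8, 118 and 126 CPM in B6, with a mean of 99.3 ± 12.6 CPM in D2 (SD, n = 3), so the F1 libraries lay within the range of B6. The log2 difference between F1 and the mean of the parents was -0.16 (SE 0.12) for Dbp, -0.19 (SE 0.13) for Nr1d1 and -0.16 (SE 0.10) for Per1. By edgeR 0 of 10 were called, 0 had an unadjusted p under 0.05 and DESeq2 called 0, where 1.59% of peaks and 0.787% of promoter peaks were called. The markers of somatic testis cells summed to 155 to 175 CPM in F1, 145 to 213 CPM in B6 and 142 to 169 CPM in D2, and those of germ cells to 329 to 405 CPM in F1.

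The BXD panel showed how far each clock promoter varied over 61 strains in germ cells. Dbp ranged from 64.9 CPM in BXD1 to 139 CPM in BXD39 with a median of 105, and Nr1d1 from 55.1 CPM in BXD1 to 111 CPM in BXD86 with a median of 84.3. Arntl ranged from 41.4 CPM in BXD45 to 77.9 CPM in BXD83 (a library of 2.13 M reads) and Clock from 54.6 CPM in BXD27 to 107 CPM in BXD14. The lowest strain was BXD1 for 7 of 10 genes, and BXD1 also had the lowest share of reads in promoter peaks, 53.4% against a median of 61.7% and a highest share of 72.8%.

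That share moved with all 10 genes over the 61 strains, with Pearson's r from 0.57 for Per1 to 0.87 for Dbp, given here as a description, and its part in the strain differences was not tested. The SD between strains was 0.12 (log2) for Per1 and 0.15 to 0.19 for the other 9, against a median of 0.17 over 17146 promoter peaks. For 7 strains with repeat libraries (15 libraries) the SD within a strain was as large or larger for 8 of 10 genes, for example 0.36 within against 0.19 between for Clock. Per1 had 0.08 within and 0.12 between strains, and Per2 0.17 and 0.18. Repeats of a strain could differ in depth. Those of BXD84 held 1.87 and 13.8 M reads, with 72.8% and 60.1% in promoter peaks, and those of BXD56 2.23 and 10.7 M. The part of depth in these SDs was not tested.

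Antibody lot moved with several of these genes. Lot 2557645 served 28 strains and lot 2746331 32 strains in this test, and 6 of 10 clock genes differed between them by edgeR, where 56.4% of peaks did. Clock (0.18), Nr1d2 (0.17), Arntl (0.12) and Cry1 (0.10) were higher in log2 with lot 2557645, and Nr1d1 (-0.23) and Dbp (-0.12) were lower. Lot and strain cannot be told apart here, so lot means were subtracted in the germ cell relations that follow. They were also subtracted for the SDs and the r with promoter share given above. The ranges of CPM over strains were given without that step.

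Dbp and Nr1d1, both E-box targets of CLOCK and ARNTL, went together over BXD strains in germ cells. Pearson's r was 0.88 and Spearman's rho 0.87 over 61 strains, with a permutation p of 1e-05, the smallest that the permutations could give, and an adjusted p of 4e-05 over 8 relations for r and 2.67e-05 for rho. Without the 2 strains farthest out r was 0.84, and within the lots it was 0.91 (28 strains) and 0.82 (32 strains). All promoter peaks tended to go together, with a median r of 0.39 against Nr1d1, and 99.97% of 17145 promoter peaks had a lower r with Nr1d1 than Dbp had. Ranked by r with Dbp instead, Nr1d1 took place 131. With the share of reads in promoter peaks regressed out of both genes, an alternative added after the data were seen, r was 0.70.

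The other relations were weaker, and the median r of all promoter peaks was 0.47 against Dbp. Per1 and Dbp had r of 0.71 (rho 0.65, adjusted permutation p = 4e-05 for r and 2.67e-05 for rho), 0.62 without 2 strains, 0.77 and 0.52 within lots 2557645 and 2746331 and 0.54 with the share regressed out, and 83.7% of promoter peaks had a lower r with Dbp. Arntl, the target of NR1D1 repression, had r of 0.49 with Nr1d1 (rho 0.43, adjusted permutation p = 0.000800 for r and 0.00224 for rho) and 0.40 without 2 strains. Within the lots this was 0.63 and 0.10 (permutation p = 0.587), so it did not hold in lot 2746331, it was -0.23 with the share regressed out, and 64.04% of promoter peaks had a lower r with Nr1d1. Arntl and Dbp had r of 0.62 (rho 0.56, adjusted permutation p = 5.33e-05 for r and 2.67e-05 for rho), 0.56 without 2 strains, 0.70 and 0.35 within lots and -0.18 with the share regressed out, with a lower r at 70.5% of promoter peaks.

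The genes most like Dbp over the panel were Gamt (r 0.94), Tnrc18 (0.94) and Nav2 (0.93), over 61 strains and 17145 promoter peaks, with Nr1d1 in place 131. Most like Nr1d1 were the peak of Pdzd7 and Sfxn3 (0.90), that of Aldoa and Fam57b (0.89) and a peak at starts of Setd1b and Rhof (0.88), with Dbp in place 5. Most like Arntl were the peak of Eif1b (0.92), Camta1 (0.92) and Cnnm2 (0.91), and among the clock genes Per2 (0.86) and Clock (0.83). In hepatocytes, over 12 libraries and 12064 promoter peaks, Pklr had an r of 0.94 with Dbp, Arhgef1 of 0.99 with Nr1d1 and Acbd6 of 0.97 with Arntl.

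**Figure D4:**
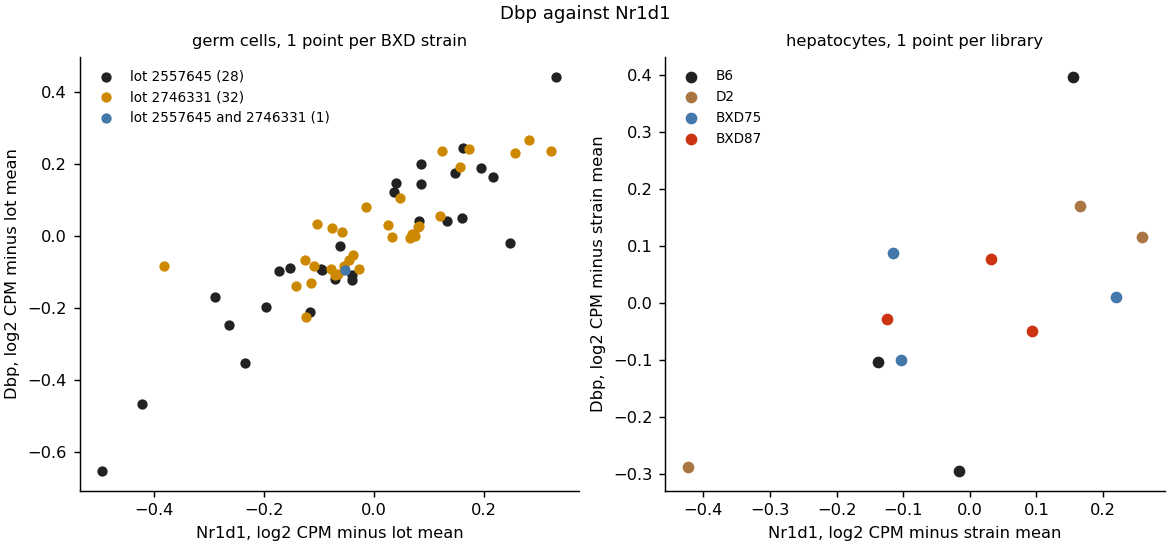
Dbp against Nr1d1 H3K4me3, in log2 CPM minus the lot mean for 61 BXD strains in germ cells (left, 1 point per strain, coloured by antibody lot) and in log2 CPM minus the strain mean for 12 hepatocyte libraries (right, coloured by strain). The germ cell strains of both lots lie along 1 line (r 0.88), and in hepatocytes a B6 library stands at the top and a D2 library at the lower left (r 0.64).

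Single hepatocyte libraries stood apart from the others of their strain at some clock genes, and those with the largest deviations are described here. Dbp was at 75.9, 123 and 86.8 CPM in B6 replicates 1, 2 and 3 and at 81.5, 84.6 and 61.5 CPM in those of D2. B6 replicate 2 was also the highest B6 library at Per1 (199 CPM), Per2 (96.4 CPM), Per3 (60.9 CPM), Cry2 (156 CPM) and Nr1d1 (160 CPM), and the lowest at Arntl (90.2 CPM) and Cry1 (128 CPM). D2 replicate 3 was the lowest D2 library at Nr1d1, with 92.7 CPM against 149 and 140 CPM, and at Per1 (158 CPM), and the highest at Clock (101 CPM) and Cry1 (154 CPM). The deviation of Dbp in B6 replicate 2 was 0.40 in log2 from its strain mean, where 90% of that library's promoter peaks lay between -0.14 and 0.16. For Nr1d1 in D2 replicate 3 it was -0.42, where 90% lay between -0.25 and 0.24. Other libraries also left that range, such as B6 replicate 1 at Dbp (-0.29, where 90% lay between -0.26 and 0.14). Another was D2 replicate 1 at Nr1d1 (0.26, where 90% lay between -0.21 and 0.18).

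**Figure D5:**
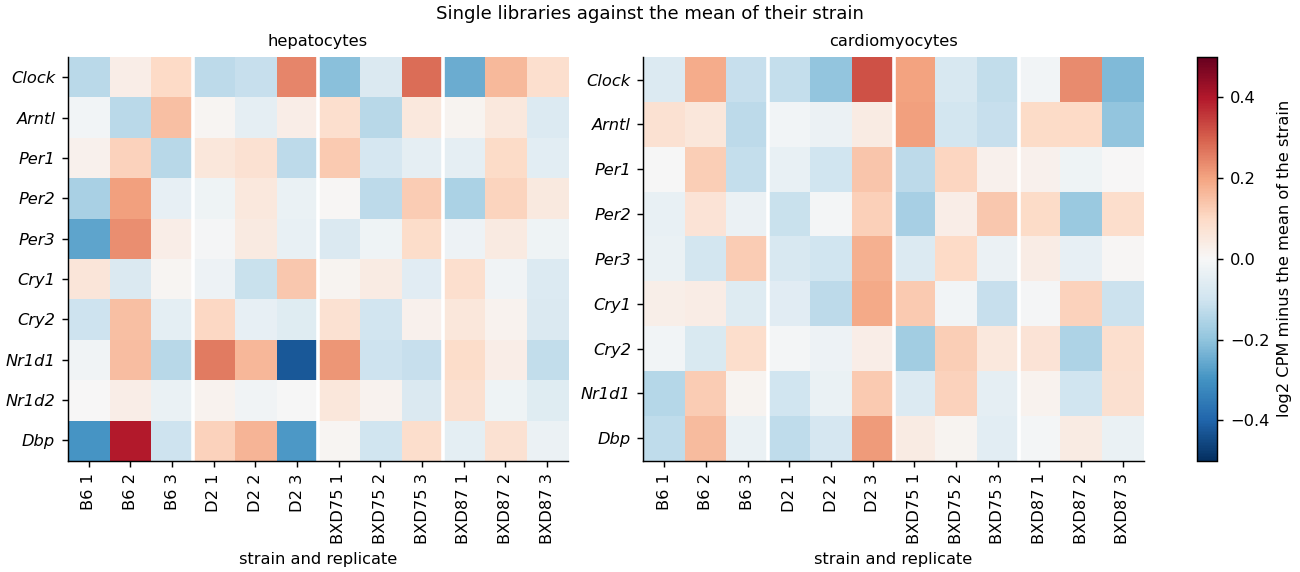
Deviation of each hepatocyte (left) and cardiomyocyte (right) library from the mean of its strain in log2 CPM (colour scale, red above the mean and blue below), with clock genes in rows and libraries in columns. Dbp is highest in hepatocyte library B6 2 (0.40) and Nr1d1 lowest in D2 3 (-0.42), and in cardiomyocytes Clock is highest in D2 3.

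Over the 12 hepatocyte libraries, with strain means subtracted, Dbp and Nr1d1 had r of 0.64 (exact permutation p = 0.0741, adjusted p = 0.119, r 0.79 without 2 libraries) and rho of 0.64 (exact permutation p = 0.0849). Per1 and Dbp had r of 0.64 (exact permutation p = 0.0995, adjusted p = 0.133, r 0.71 without 2 libraries) and rho of 0.65 (exact permutation p = 0.0826). For Arntl r was -0.12 with Nr1d1 (exact permutation p = 0.693) and -0.31 with Dbp (exact permutation p = 0.613), with rho of -0.15 and -0.18 (exact permutation p = 0.664 and 0.678), and none of the 4 passed the threshold. Without B6 replicate 2 and D2 replicate 3, left out after the data were seen, r became -0.14 for Dbp with Nr1d1, 0.04 for Per1 with Dbp, 0.40 for Arntl with Nr1d1 and 0.79 for Arntl with Dbp, so the hepatocyte values rest on those libraries. In 12 cardiomyocyte libraries, also added, r was 0.69 for Dbp with Nr1d1 (exact permutation p = 0.0633, rho 0.59 with p = 0.129, r 0.39 without 2 libraries) and -0.33 for Arntl with Nr1d1 (exact permutation p = 0.356, rho -0.35 with p = 0.343). There r was 0.58 for Per1 with Dbp (exact permutation p = 0.175, rho 0.43 with p = 0.311). Arntl with Dbp had the opposite sign to Arntl with Nr1d1, with r of 0.29 (exact permutation p = 0.199, rho 0.37 with p = 0.152).

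A wider list of 23 clock-related genes was counted beside the members, with a promoter peak for all 23 in germ cells, hepatocytes and cardiomyocytes and for 21 in stem cells. Between B6 and D2 in hepatocytes 1 of 23 was called, Arntl2, a relative of Arntl, which was 1.26 higher in B6 on the log2 scale (SE 0.11, adjusted p = 2e-07), where 15.8% of all peaks were called. In stem cells 2 of 21 were called, where 30.6% of peaks were: Arntl2 was lower in B6 by -0.35 (SE 0.10, adjusted p = 0.0128) and Tef, a PAR bZIP factor related to Dbp, higher by 0.31 (SE 0.10, adjusted p = 0.0216). The Arntl2 call was lost without B6 line 49 (adjusted p = 0.104) and that of Tef without B6 line 146 (adjusted p = 0.0908) or D2 line 173 (adjusted p = 0.0520). In cardiomyocytes 2 of 23 were higher in B6, where 6.51% of peaks were called: Nampt, an NAD-making enzyme, by 1.76 (SE 0.18, adjusted p = 3e-05), and Usp2, a deubiquitinase, by 0.34 (SE 0.08, adjusted p = 0.0263). The Usp2 call was lost in 5 of 6 fits that left out 1 library (adjusted p up to 0.0978).

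Between BXD75 and BXD87 in stem cells 6 of 21 wider clock genes were higher and 1 lower, with a median log2 of 0.15 against 0.06 over all promoter peaks and 21.8% of peaks called. Bhlhe40, an E-box repressor, was higher in BXD75 by 0.49 (SE 0.09, adjusted p = 0.000582) and Csnk1e, a kinase that acts on PER proteins, by 0.40 (SE 0.10, adjusted p = 0.00634), while Hlf, a PAR bZIP factor, was lower by -0.68 (SE 0.08, adjusted p = 1.17e-06). For the 10 clock genes the median was 0.15. In germ cells (B6 and D2, F1 and parents), in hepatocytes between BXD75 and BXD87 and in cardiomyocytes between BXD75 and BXD87, edgeR called 0 of 23. In stem cells the call of Rora was lost in 2 alternatives and that of Bhlhe41 in 1.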

How the data were processed

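H3K4me3 reads in peaks were used from 123 of 135 samples, the other 12 being inputs with no count column. The authors deposited whole-number read counts per peak for each cell type, with peak lists whose values (positions and other peak columns) give where each peak lies on mm10; the submitters' processing notes name CASAVA 1.8, BWA 0.5.10 and MACS 1.4.2. Columns left out for lack of a sample numbered 0. The members and gene lists were chosen with earlier results of these data known.

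Peaks within 1 kb of a GENCODE M21 start were assigned to genes. Counts of all peaks were scaled by TMM and tested with edgeR 4.0.16 (quasi-likelihood, limma 3.58.1, R 4.3.3) within each cell type, and p-values were adjusted by Benjamini-Hochberg over all peaks at 0.05. DESeq2 1.42.0 was an alternative. Libraries of 1 stem cell line were summed. Levels (CPM) are counts per mega-read of the cell type's own scaled library size, and between cell types of a shared scale, with 0.5 CPM added on log2 for single libraries. Relations used 100000 permutations or all 1296 within strains, over promoter peaks with a mean of at least 5 CPM. Of 200 simulated peaks changed 2-fold, 192 were recovered in hepatocytes, 185 in cardiomyocytes, 191 in stem cells and 172 in germ cells, with 5, 10, 13 and 9 false calls. The simulation set the same spread for every peak and changed no peak with few reads. A 2-fold change is larger than every strain difference at the clock genes above, so these counts do not give the power to call those. The comparison of promoter peaks whatever their extent, the difference between cell types, the regression on promoter share, the 2 hepatocyte libraries left out, the cardiomyocyte relations and the counts of groups that do not overlap were chosen after the data were seen. Replicates are libraries, and the labels do not say which share an animal, so p-values measure the spread between libraries. The genes named are the members, the called genes of the wider list and the 3 promoters most like Dbp, Nr1d1 and Arntl. Equal replicate numbers were not used to pair samples in the main fits. Among pairs of libraries with equal numbers, 5 of 18 in hepatocytes and 8 of 18 in cardiomyocytes had a correlation over 0.1. The highest were 0.61 and 0.65. Pairs with unequal numbers were not compared, so these counts do not settle whether samples were paired. Python 3.11.15 with numpy 2.4.6, scipy 1.17.1, pandas 2.3.3 and matplotlib 3.10.9 and bedtools 2.31.1 were also used.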

Additional observations from a re-analysis of the deposited data

Results flagged for a closer look

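Nr1d1 in stem cell line I of BXD87 stood at 66.8 CPM, where the other 4 lines lay between 44.4 and 48.4 CPM, a gap large for a group of 5. Line I was the highest BXD87 line at 8 of 10 clock genes and had 59.2% of its reads in promoter peaks against 55.5 to 56.7% in the other 4, whose part was not tested. Among 30 groups tested, chance flags about 1 in 20.

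The difference between BXD75 and BXD87 was not the same in hepatocytes and in stem cells at Nr1d2 (-0.55 in log2, adjusted p = 6.47e-05), at Hlf (0.65, adjusted p = 0.000216) and at Bhlhe40 (-0.61, adjusted p = 0.0481). The difference between B6 and D2 was not the same in these cells at Arntl2 (1.64, adjusted p = 2.45e-09) and Bhlhe40 (0.65, adjusted p = 0.0383). Each value is the hepatocyte difference minus the stem cell difference, tested with edgeR. The Bhlhe40 calls were lost in 11 alternatives for the lines (adjusted p up to 0.155, and 0.0536 with RLE size factors) and in 9 for the founders (adjusted p up to 0.122).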

How the results depend on the processing

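Of the peaks called, a filter of 50 reads gave 5031 between B6 and D2 in germ cells (11630 without it) and 601 between F1 and its parents (1070 without it). In cardiomyocytes DESeq2 gave 2554 between B6 and D2 and 461 between BXD75 and BXD87 (1551 and 126 with edgeR). Stem cell libraries not summed by line gave 31493 between B6 and D2 (20566 summed). Sets of peaks with 25% overlap gave 7977 called between hepatocytes and cardiomyocytes, 8313 between stem cells and hepatocytes and 8234 between stem cells and cardiomyocytes, with 5 clock genes called in the last and 1362 called in the founder difference by cell type (418 at 50%). Promoter peaks of each gene gave 8378, 8613 and 8620, and with RLE size factors 8300, 8608 and 8612 (3924, 4144 and 4121 at 50%). More peaks entered these comparisons.

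The replicate block gave 831 peaks between B6 and D2 and 72 between BXD75 and BXD87 in cardiomyocytes, and 4678 and 1530 in hepatocytes (4594 and 1425 without it), and changed no call at a clock gene.

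With 1 library left out, peaks called ranged from 7639 to 16222 between B6 and D2 in germ cells, 502 to 3679 in cardiomyocytes, and 47 to 504 between BXD75 and BXD87 in cardiomyocytes. The same for the hepatocyte and stem cell difference between the lines was 269 to 752, with 752 without hepatocyte BXD75 replicate 3 and 709 without BXD87 replicate 1 (391 with all). Clock genes called ranged from 0 to 1 between B6 and D2 in germ cells, 0 to 2 in hepatocytes, 0 to 1 between BXD75 and BXD87 in hepatocytes and 0 to 1 in stem cells, where DESeq2 called 2.

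Pearson's r turned sign without hepatocyte libraries B6 2 and D2 3 for Dbp with Nr1d1 (-0.14), Arntl with Nr1d1 (0.40) and Arntl with Dbp (0.79), and with the promoter share regressed out in germ cells for Arntl with Nr1d1 (-0.23) and Arntl with Dbp (-0.18). For Arntl with Nr1d1 it was 0.10 in lot 2746331. The cause was not tested. D2 cardiomyocyte libraries held 2.62 to 4.10 M reads, and the part of depth in the calls was not tested.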
